A study of Mus musculus with 32 samples.

Results

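The liver was set against both white fat depots in mice that received vehicle. The comparison used 12 of the 32 libraries of the study: 4 of liver, 4 of inguinal white fat (iWAT, a subcutaneous depot) and 4 of epididymal white fat (eWAT, a visceral depot). Genes entered where FPKM, the reads of a gene scaled to its length and to library size, averaged 0.5 or more over these 12 libraries. This kept 14382 of the 54532 genes in the table. All 12 libraries carry the labels C57/Bl6j, wild-type and vehicle, and all mice of the study ate a 60% fat diet for 12 weeks before vehicle was given 3 times per week for 4 weeks. The study's other libraries were brown fat and the same tissues after auranofin, a gold compound that inhibits thioredoxin reductase, at 1 mg/kg. No lean mice were labelled among the libraries, so every value below is from mice on the fat-rich diet. Neither the number of animals nor whether each library is 1 animal is given in the labels, so p-values reflect how libraries scatter, which may be technical. Each log2 difference is liver minus the mean of both depot means on the log2(FPKM + 1) scale, with its standard error (SE), and understates the difference of genes at low levels. Means are given ± SD over 4 libraries, adjusted p-values come from limma with Benjamini-Hochberg adjustment over all 14382 genes, and a gene was called at an adjusted p under 0.05. The libraries were total RNA of whole tissue, so fewer cells of a type and less RNA per cell cannot be told apart.

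The liver and white fat divide the handling of fuel in the body between them. Hepatocytes make most plasma proteins and the bile acids, dispose of amino acid nitrogen, release glucose and ketone bodies during fasting, and export fat in lipoproteins. White adipocytes store triglyceride in a single large lipid droplet, release fatty acids when fuel is needed, and secrete hormones such as leptin and adiponectin that report on the stores. Several shared steps of glucose and fat metabolism run in these tissues through different genes for the same reaction, such as the glucose transporter Slc2a2 in the liver and Slc2a4 in fat.

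The libraries carried the defining genes of their tissues. Alb, which encodes serum albumin, took 6.98% to 9.43% of the gene reads of the liver libraries. Plin1, the perilipin that coats the adipocyte lipid droplet, had no read in any liver library. Reads in genes numbered 15212904 to 18337278 per library. Spearman correlations between libraries, across genes that are not independent replicates, were 0.976 to 0.980 within liver, 0.953 to 0.979 within iWAT and 0.899 to 0.977 within eWAT, and 0.434 to 0.576 between liver and fat. The axis of largest variance, 82.7% of the total, separated the liver libraries from all 8 white fat libraries. A set of 192 to 234 genes held 50% of the reads in each liver library, against 418 to 475 genes in iWAT and 571 to 807 in eWAT. Single fat libraries stood apart in ways that touch the results. iWAT library 1 held more reads of liver genes than the other fat libraries, iWAT library 4 had a summed FPKM of 2035 for 20 skeletal muscle markers against at most 76.5 in the other fat libraries, and eWAT libraries 1 and 2 had more macrophage RNA and less Adipoq, Lep and Plin1 than eWAT libraries 3 and 4. Cidec, Slc2a4, Aqp7 and Cfd were likewise lower in eWAT libraries 1 and 2 than in eWAT libraries 3 and 4. Fabp4, Pparg, Lpl and Cav1 did not follow, being lowest in eWAT library 1 but highest of the 4 in eWAT library 2. The values of these libraries are given beside the genes they touch.

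Most genes differed between the tissues. Of the 14382 genes tested, 10483 were called, or 72.9%, with 5401 higher in liver (37.6%) and 5082 lower (35.3%). Because so many genes passed on p alone, a size was added: 1289 genes were called with a log2 difference of at least 2, a 4-fold difference, in the higher direction (8.96%) and 973 in the lower direction (6.77%), 2262 in all or 15.7%. Which direction held more of these calls depended on the settings: a pseudocount of 0.1 gave 1866 higher and 2174 lower, voom on rebuilt reads 1946 and 2254, and the TPM scale 1117 and 2547. All 4 liver libraries lay above all 8 fat libraries for 3987 genes (27.7%) and below all of them for 3625 genes (25.2%), 7612 genes in all or 52.9%. At the main settings extreme differences were more often upward, with 352 genes above a log2 difference of 5 and 96 genes below -5. The pseudocount of 1 holds down the differences of genes with few reads in a tissue, so this excess may depend on the settings too. The median log2 difference of all genes was 0.03. This balance rests on the authors' scaling: with each library rescaled to a common sum (TPM), the median of all genes moved to -0.81, and 2401 genes were called higher against 9269 lower, so that 20.6% of calls were upward in place of 51.5%. Against each depot alone, with the liver libraries shared by both, 5066 genes were higher (35.2%) and 4703 lower (32.7%) than in iWAT, and 5309 were higher (36.9%) and 4856 lower (33.8%) than in eWAT, or 67.9% and 70.7% of genes called in either direction. At 4-fold 9.03% were higher and 6.61% lower than in iWAT (15.6% in all), and 9.11% were higher and 7.87% lower than in eWAT (17.0% in all).

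**Figure D1:**
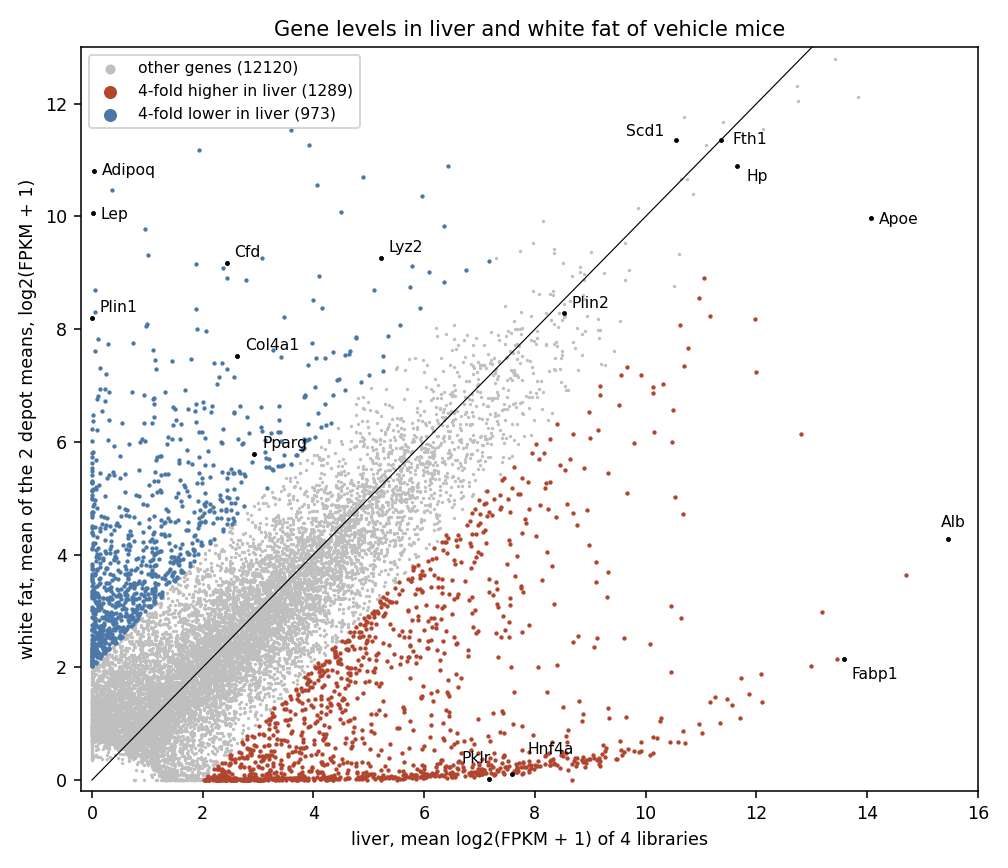
Each point is 1 of the 14382 genes, at its mean log2(FPKM + 1) in liver (x axis) and in white fat (y axis, the mean of both depot means); the line marks equal levels. Genes 4-fold higher in liver (1289) lie to the right and reach far higher levels than genes 4-fold lower (973), and Fth1 and Plin2 lie near the line.

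The gene highest in liver relative to fat was Fabp1, the liver fatty acid binding protein, at 12902, 13156, 11194 and 11769 FPKM in liver. It had 61.4, 1.34, 0 and 8.12 FPKM in iWAT and 5.57, 1.30, 3.27 and 0.675 FPKM in eWAT. No fat library came near the liver, and the log2 difference was 11.44 ± 0.84 (SE, adjusted p = 7.3e-08). Alb had 42495, 39644, 44352 and 56133 FPKM in liver, against 217, 16.3, 19.2 and 24.96 in iWAT and 23.5, 10.6, 9.22 and 2.43 in eWAT. Its log2 difference was 11.19 ± 0.64 (SE, adjusted p = 6.1e-09). The genes that followed encode proteins that the liver secretes or uses within the hepatocyte. Apoa2 and Apoa1, the main proteins of high-density lipoprotein, had log2 differences of 11.07 and 10.97, Gc, the vitamin D binding protein, 10.71, the serine protease inhibitor Serpina3k 10.33, Ambp, the precursor of alpha-1-microglobulin and bikunin, 10.32, and fetuin-A (Ahsg) 10.23. The SE of these genes ran between 0.52 and 0.98, far more than the 0.16 to 0.22 of the genes at the other end, and iWAT library 1 was apart from the other 7 fat libraries for each of them. Some genes at the other end had only 0 to 3 reads in all liver libraries together. The pseudocount held the spread of their liver values down, so the SE of both ends cannot be compared directly. Mup3 and Mup20 of the major urinary proteins also ranked among the 12 largest differences, but reads of their near-identical copies cannot be parted and their values are uncertain.

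At the other end stood the hormones and storage genes of the adipocyte. Adipoq, which encodes adiponectin, had 0, 0, 0 and 0.132 FPKM in liver, against 3021, 2792, 3040 and 2864 in iWAT and 596, 1070, 1395 and 1571 in eWAT. The log2 difference was -10.76 ± 0.21 (SE, adjusted p = 1.4e-13), and it rested on 2 reads in all 4 liver libraries together. Lep, which encodes leptin, had 0, 0, 0 and 0.0273 FPKM in liver, 1 read in all, against 1663, 1647, 1548 and 1747 in iWAT and 445, 661, 886 and 865 in eWAT, with a log2 difference of -10.05 ± 0.16 (SE, adjusted p = 3.3e-14). Plin1 had no read in liver, against 480, 445, 473 and 410 FPKM in iWAT and 111, 148, 275 and 289 in eWAT. Taking 3 reads over the 4 liver libraries as the limit that a count of 0 allows, which covers counting error only, it was at least 24310-fold lower in liver. The fatty acid binding protein Fabp4 fell to 2.83 ± 0.523 FPKM in liver, against 3747 ± 254 in iWAT and 1514 ± 464 in eWAT. Lipoprotein lipase (Lpl), which frees fatty acids at the vessel wall, fell by 8.83 on the log2 scale, the cell surface amine oxidase Aoc3 by 7.72, caveolin 1 (Cav1), the coat protein of membrane caveolae, by 8.30, and the synuclein Sncg by 10.11. Resistin (Retn) and the cell cycle regulator Rgcc had only 3 and 2 reads in the liver libraries together. Every one of these genes was lower in eWAT than in iWAT as a mean, and eWAT library 1 was the lowest fat library for Adipoq, Lep and Plin1.

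The traces of hepatocyte genes in fat were not spread evenly. The 51 protein-coding genes that were 4-fold higher in liver and averaged at least 1000 FPKM there had a median of 0.878% of their liver level in iWAT library 1, against 0.0343% to 0.101% in the other iWAT libraries and 0.0221% to 0.113% in the eWAT libraries. Alb gave 9446 reads in iWAT library 1 and 122 to 1323 in the other fat libraries. Of the 51 genes, 32 stayed under 2% of the liver level in every fat library, a limit set after the values were seen, and 31 of these 32 were highest in iWAT library 1, at 0.28% to 1.72% of the liver level. The other 19 genes reached 2% or more in some fat library, among them Apoe, Gpx1, Cat, Pck1, C3 and Selenop, and iWAT library 1 was the highest fat library for Apoe but not for the other 5 of these. These traces were treated as carry-over of liver RNA, as the comparison had been set up, and their origin was not tested. Without iWAT library 1, 1283 of the 1289 genes kept the 4-fold higher call, 1290 genes were called so in all, and the median log2 difference of the 51 genes was 9.62 against 9.36 with it.

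**Figure D2:**
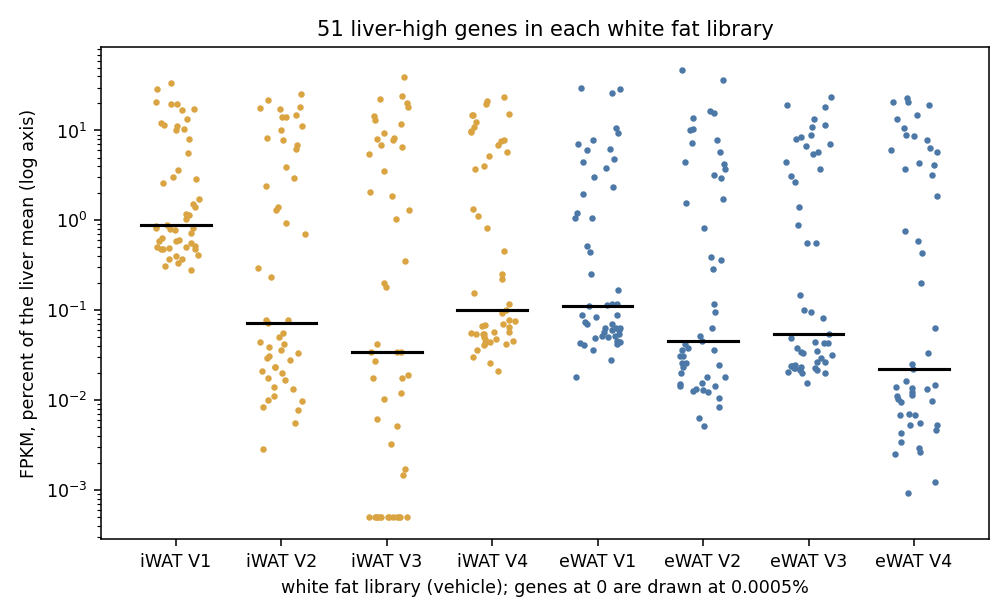
Each point is 1 of the 51 protein-coding genes 4-fold higher in liver with a liver mean of at least 1000 FPKM, given as a percent of that mean in each white fat library (log axis); bars are medians. Over the 32 genes that stayed under 2% everywhere, the median is 0.585% in iWAT V1 and 0.00419% to 0.0620% in the other 7 libraries.

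Plasma carrier proteins were higher in liver on the authors' scale without an exception among those tested. Of 27 tested carrier and transport proteins of plasma all 27 were higher in liver, 25 of them 4-fold, against 37.6% and 8.96% of all genes, with a median log2 difference of 8.55. Against iWAT alone 26 were called higher, and on the TPM scale 25. Genes high in liver alone could pass the filter through liver, so counts of liver lists speak only of those that did. Haptoglobin (Hp), which binds free haemoglobin, was the near exception: it had 2896, 2924, 4006 and 3171 FPKM in liver, against 2463, 3018, 1893 and 2175 in iWAT and 1201, 1544, 1957 and 1567 in eWAT. The groups overlap, the log2 difference was 0.76 ± 0.17 (SE, adjusted p = 0.0013), and it turned to -0.23 on the TPM scale and -0.37 under quantile normalisation. Orosomucoid 1 (Orm1), an acute-phase plasma protein, was likewise high in all tissues, at 765 ± 204 FPKM in liver, 452 ± 17.7 in iWAT and 183 ± 52.6 in eWAT. By limma the Orm1 call was lost on the TPM scale (0.41, adjusted p = 0.065) and under quantile normalisation (0.35, adjusted p = 0.11). Genes such as these, named for an exception to their group, were chosen after their values were seen.

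Of 29 coagulation and fibrinolysis genes 20 were higher, all 20 by 4-fold, and 8 lower. Of all genes 37.6% were higher, 8.96% by 4-fold, and 35.3% lower. The fibrinogen gamma chain (Fgg) had 2093 ± 345 FPKM in liver, 3.18 ± 5.72 in iWAT and 0.423 ± 0.336 in eWAT. The 8 lower genes are known from vessel wall cells and macrophages, among them the plasminogen activators Plau and Plat, tissue factor (F3), its inhibitor Tfpi, thrombomodulin (Thbd), Vwf and F13a1. Complement divided in the same manner, with 20 of 28 genes higher and 8 lower. Mbl2, a mannose-binding lectin, had 505 ± 75.6 FPKM in liver, 0.628 ± 1.08 in iWAT and 0.182 ± 0.223 in eWAT, and complement factor I (Cfi) had a log2 difference of 8.04. Lower were the 3 chains of C1q, C7, properdin (Cfp), the receptors C3ar1 and C5ar1, and Cfd. Cfd, or adipsin, the protease that starts the alternative pathway, had 1.31, 3.51, 25.7 and 2.08 FPKM in liver, against 2302, 773, 2025 and 1172 in iWAT and 95.9, 106, 495 and 584 in eWAT. Its log2 difference was -6.74 ± 0.69 (SE, adjusted p = 1.7e-06), and liver library 3 was apart from the other 3 liver libraries. C3, the substrate of that pathway, had 1281 ± 171 FPKM in liver, 48.2 ± 2.82 in iWAT and 348 ± 77.7 in eWAT, with a log2 difference of 4.70 against iWAT and 1.89 against eWAT.

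Of 30 genes of lipoproteins and their handling 23 were higher and 6 lower, against 37.6% and 35.3% of all genes. The higher ones held the apolipoproteins, with Apoc3, which slows the clearance of triglyceride-rich particles, at 3391 ± 409 FPKM in liver, 9.32 ± 13.7 in iWAT and 1.22 ± 0.708 in eWAT. Apoe, the ligand for remnant uptake, was high in every library, at 17119 ± 809 FPKM in liver, 1221 ± 380 in iWAT and 860 ± 188 in eWAT, and still differed by 4.10 ± 0.19 on the log2 scale (SE, adjusted p = 6.4e-10). The 6 lower genes were Lpl, its endothelial anchor Gpihbp1, its inhibitor Angptl4, the receptor Vldlr, the transfer protein Pltp and the cholesterol exporter Abcg1.

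Some of these liver genes carry, near their start, letters that hepatocyte transcription factors are known to bind. RefSeq promoter windows on GRCm38.p6, 250 bases before to 50 after the start, were at hand for 851 of 1098 protein-coding genes 4-fold higher in liver and for 669 of 920 that were 4-fold lower. They were searched on both strands for GTTAAT and ATT with 1 base of any kind between them, a part of the palindrome bound by HNF1, for CAAAGTCCA, bound by HNF4, and for a pair of AGGNCA with 1 base between them, the direct repeat bound by nuclear receptor pairs such as PPAR with RXR. These searches are descriptions, and a match is not a shown site. The stretches below are the bases from 50 before a match (or the window's end) to 2 after it, in the gene's own direction, with the match in capitals. In F13b, Igfbp1 and Fabp1 the match is on the opposite strand and reads as its reverse complement. The HNF1 set was picked from the 28 liver-high genes with a match. It shows genes of plasma proteins and Igfbp1 with the match within 70 bases of the start, and G6pc with it farther out. Other plasma protein genes held the match farther out too, such as Cfhr2 (first base at -111), Afm (-138) and Cp (-198).
Gc, chr5:89457939-89458000, minus strand: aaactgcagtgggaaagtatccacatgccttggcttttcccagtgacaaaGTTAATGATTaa
C4bp, chr1:130661671-130661732, minus strand: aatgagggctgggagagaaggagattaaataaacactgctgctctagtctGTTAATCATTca
F13b, chr1:139501602-139501663, plus strand: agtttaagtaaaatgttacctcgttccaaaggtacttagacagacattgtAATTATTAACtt
Habp2, chr19:56287796-56287857, plus strand: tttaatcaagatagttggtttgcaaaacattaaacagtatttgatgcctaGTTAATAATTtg
Igfbp1, chr11:7197677-7197738, plus strand: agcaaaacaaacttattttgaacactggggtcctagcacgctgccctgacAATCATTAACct
G6pc, chr11:101367466-101367506, plus strand: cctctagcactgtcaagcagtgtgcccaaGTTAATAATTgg
The HNF4 set was picked from the 20 liver-high genes with a match, and each match shown lies before the start. It is followed by the direct repeat of Fabp1. Apart from Agxt2, the genes shown serve bile acid, drug or fatty acid handling.
Cyp8b1, chr9:121916362-121916422, minus strand: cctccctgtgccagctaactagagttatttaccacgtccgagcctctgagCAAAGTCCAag
Cyp3a11, chr5:145879953-145880013, minus strand: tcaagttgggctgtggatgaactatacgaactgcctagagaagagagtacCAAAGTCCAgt
Agxt2, chr15:10358462-10358522, plus strand: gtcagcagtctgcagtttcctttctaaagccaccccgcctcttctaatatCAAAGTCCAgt
Cyp2c70, chr19:40187340-40187400, minus strand: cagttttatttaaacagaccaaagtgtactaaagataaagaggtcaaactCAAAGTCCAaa
Fabp1, chr6:71199762-71199826, plus strand: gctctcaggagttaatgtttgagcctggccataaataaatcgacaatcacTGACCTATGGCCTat

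The HNF1 letters stood in the windows of 28 of the 851 liver-high genes (3.29%), 1 of the 669 liver-low genes (0.149%) and 8 of the 8253 other protein-coding genes tested (0.0969%), and in 0.470% of all 27025 genes with a window. Put the other way, 28 of the 37 tested genes with the match were 4-fold higher in liver, or 75.7%, where 8.71% of all tested genes with a window were. All 29 matches in liver-high genes had their first base before the start, at a median of -66, counting the base just before the start as -1, and that of Hgfac ran across the start, to base 2 after it. The match ran between -52 and -43 in Gc, -64 and -55 in C4bp, -55 and -46 in F13b, -66 and -57 in Habp2 and -60 and -51 in Igfbp1. In G6pc it ran between -221 and -212 of the RefSeq start. The log2 differences of these genes were 10.71 for Gc, 6.85 for C4bp, which encodes the alpha chain of the complement inhibitor C4b-binding protein, 6.35 for F13b, the carrier subunit of clotting factor XIII, 5.89 for Habp2, a hyaluronan-binding plasma protease, 5.81 for Igfbp1 and 7.37 for G6pc. The HNF4 letters stood in 20 liver-high genes (2.35%), 4 liver-low genes (0.598%) and 36 of the others (0.436%), against 0.555% of all windows. Of the 60 tested genes with the HNF4 letters 33.3% were 4-fold higher in liver. Only 15 of the 23 HNF4 matches in liver-high genes lay before the start. The direct repeat was found in 12 liver-high genes (1.41%), 5 liver-low genes (0.747%) and 21 of the others (0.254%), against 0.451% of all windows. Most liver-high genes held none of these letters in this window. The letters TTGCNNAA, bound by C/EBP factors, was common everywhere, in 16.6% of liver-high, 12.4% of liver-low and 9.94% of other genes.

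Genes of amino acid breakdown were higher in liver throughout. All 40 genes of the urea cycle and amino acid catabolism were called higher, 38 of them 4-fold, against 37.6% and 8.96% of all genes. Their median log2 difference was 6.88. Mat1a, which makes S-adenosylmethionine from methionine, had 1094 ± 164 FPKM in liver, 0.924 ± 1.66 in iWAT and 0.214 ± 0.192 in eWAT. Hpd of tyrosine breakdown had a log2 difference of 9.36 and Gnmt, which uses up methyl groups on glycine, 9.21. The breakdown of branched-chain amino acids was the exception, with 14 of 24 genes higher, 5 lower (3 without liver library 3 or 4 or eWAT library 3) and a median of 0.77. On the TPM scale 7 were higher and 10 lower, with a median of -0.20, where the median of all genes was -0.81. The transaminases that open that pathway were lower, with Bcat1 at 2 reads in the liver libraries together, against 7.40 ± 0.518 FPKM in iWAT and 2.99 ± 1.21 in eWAT, and Bcat2 with a log2 difference of -0.98. The kinase Bckdk, which switches the next step off, was lower by 1.18, and the phosphatase Ppm1k, which switches it on, was higher by 3.06 ± 0.09 (SE, adjusted p = 1.0e-11).

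Bile acid synthesis and transport had all 22 tested genes of 24 listed higher, all 22 by 4-fold, against 37.6% and 8.96% of all genes. A gene high in liver alone could pass the filter through liver, so this count speaks only of those that did. Cyp8b1, which sets the share of cholic acid, had 334, 378, 323 and 408 FPKM in liver, against 2.07, 0.0544, 0.119 and 0.177 in iWAT and 0.577, 0.394, 0.265 and 0.335 in eWAT. Slc27a5, which attaches coenzyme A to bile acids and fatty acids, had a log2 difference of 8.56, and Akr1c6, an aldo-keto reductase of steroids, 9.11. Cytochrome P450 enzymes of drug and steroid metabolism were higher in 22 of 25 cases and lower in 2. Cyp2d26 had 941 ± 115 FPKM in liver, 1.09 ± 1.71 in iWAT and 0.167 ± 0.154 in eWAT. The 2 lower genes were Cyp4b1 and Cyp1b1, and Cyp1b1 had 0.238 ± 0.139 FPKM in liver, 3.07 ± 0.397 in iWAT and 20.1 ± 9.88 in eWAT. Conjugation enzymes, which attach sugar, sulfate or glutathione to drugs, were higher for 29 of 31 genes. Nnmt, the nicotinamide methyltransferase, was the single lower one (log2 difference -0.64), a call that was lost without any 1 of 9 of the 12 libraries (-0.41 without liver library 2, adjusted p = 0.19). Several P450 and conjugation genes lie in clusters of near-identical copies, so single members are less certain than the group.

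**Figure D3:**
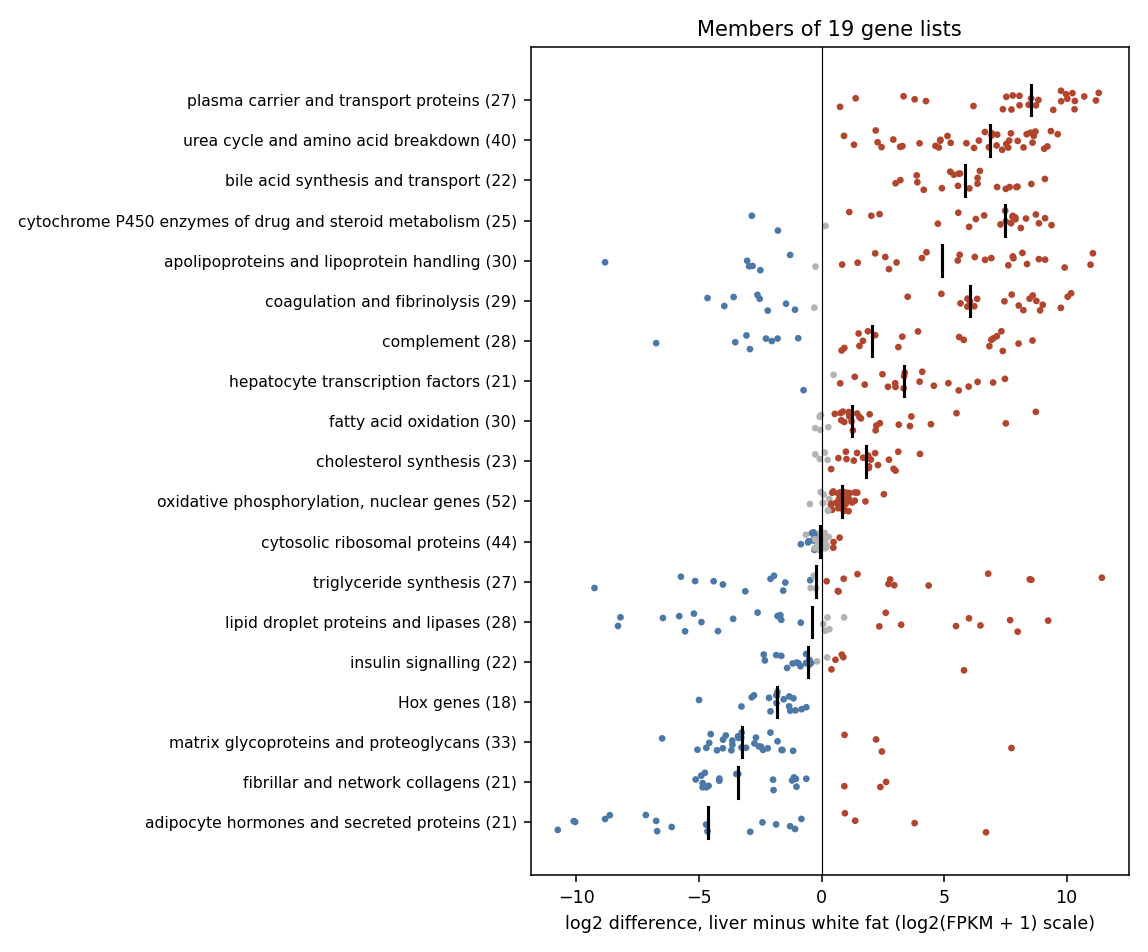
Log2 differences (liver minus white fat) of the tested members of 19 gene lists, with the number tested in parentheses; red members were called higher, blue called lower, grey not called, and black bars are medians. Plasma, amino acid and bile acid lists lie wholly to the right, lists of triglyceride and droplet proteins spread to both sides, and Hox, matrix, collagen and adipocyte hormone lists lie mostly to the left.

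Steps of metabolism that both tissues run were read through 24 pairs of genes for the same reaction or role, listed as the form known from liver and the form known from fat. The liver form was called higher in 20 pairs, the fat form called lower in 19, and both in 16, against 37.6% of all genes higher and 35.3% lower. In 15 pairs the form with more FPKM, a level per length, differed between every liver library and every fat library.

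Glucose entry and glycolysis were among the sharpest. The glucose transporter Slc2a2 had 81.8 ± 2.24 FPKM in liver, 0.119 ± 0.201 in iWAT and 0.251 ± 0.031 in eWAT, while the insulin-responsive Slc2a4 had 0.123 ± 0.0589 in liver, 43.1 ± 5.46 in iWAT and 17.2 ± 11.6 in eWAT. Hexokinase 2 (Hk2), which traps glucose by phosphorylating it, had 0.114, 0.879, 0.341 and 0.291 FPKM in liver, 19.03, 17.0, 21.2 and 15.4 in iWAT and 5.71, 11.4, 12.6 and 12.4 in eWAT. Its log2 difference was -3.40 ± 0.20 (SE, adjusted p = 6.5e-09), and no liver library overlapped a fat library. For pyruvate kinase, Pklr had 152, 154, 113 and 160 FPKM in liver and at most 0.0996 in any fat library, while Pkm had 4.24, 5.001, 6.09 and 4.63 in liver and 77.6 to 112 in fat. The glycolytic activator Pfkfb3 fell to 2.14 ± 0.746 FPKM in liver, against 106 ± 13.9 in iWAT and 61.4 ± 19.5 in eWAT.

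Glycogen and phosphofructokinase did not divide so cleanly. Gys2, the liver glycogen synthase, had 72.8, 93.0, 82.0 and 91.1 FPKM in liver, but also 16.3, 26.2, 18.4 and 23.2 in iWAT and 6.39, 15.7, 9.97 and 15.1 in eWAT. It was thus 50.1% ± 5.70 of the pair in iWAT and 52.0% ± 9.35 in eWAT, beside 98.9% ± 0.349 in liver, where Gys1 was down to 0.914 ± 0.297 FPKM. The phosphorylases Pygl and Pygb kept the usual division, with Pygl at 98.9% of the pair in liver, 34.9% in iWAT and 32.5% in eWAT. Pfkl, called the liver phosphofructokinase, was lower in liver than in iWAT (10.4 ± 0.855 against 21.8 ± 2.22 FPKM, log2 difference -0.9976 ± 0.19 SE, adjusted p = 4.7e-04) and not called against eWAT (12.7 ± 4.24 FPKM, log2 difference -0.22 ± 0.19 SE, adjusted p = 0.32). The mRNAs of G6pc, Fbp1 and Pck1, which serve glucose output, were higher in liver, while output itself was not measured. G6pc, which frees glucose from its phosphate, had 386, 204, 194 and 104 FPKM in liver and at most 1.65 in fat, a spread between liver libraries that was wider than for most liver genes. Fbp1 had a log2 difference of 9.28. Pck1 serves glucose output in liver and glycerol synthesis in fat, and had 1032 ± 381 FPKM in liver, 266 ± 133 in iWAT and 107 ± 77.7 in eWAT (log2 difference 2.73 ± 0.46 SE, adjusted p = 1.4e-04).

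Among lipid pairs, Fabp1 made up at least 99.97% of the pair with Fabp4 in each liver library and at most 1.48% in any fat library. Hepatic lipase (Lipc) had 91.5 ± 8.29 FPKM in liver, 0.156 ± 0.229 in iWAT and 0.285 ± 0.0941 in eWAT, opposite to Lpl. Of the glycerol channels, Aqp9, which takes glycerol up, had 146 ± 6.21 FPKM in liver, 0.238 ± 0.318 in iWAT and 0.439 ± 0.135 in eWAT, and Aqp7, which lets it out of adipocytes, had 0.257 ± 0.343 in liver, 83.9 ± 4.60 in iWAT and 52.1 ± 20.2 in eWAT. Slc27a5 and Slc27a1 among fatty acid uptake proteins, Mat1a and Mat2a, Saa1 and Saa3, and the receptors Fgfr4 and Fgfr1 divided likewise. The nuclear receptors Ppara, which drives fatty acid oxidation, and Pparg, which drives fat cell differentiation, did too. Ppara had 21.02, 24.5, 25.1 and 28.4 FPKM in liver, 0.434, 0.498, 0.468 and 0.643 in iWAT and 0.185, 0.739, 0.448 and 0.523 in eWAT. Pparg had 5.92, 10.01, 5.02 and 6.38 FPKM in liver, 93.9, 79.1, 68.0 and 53.7 in iWAT and 30.6, 55.6, 38.5 and 42.1 in eWAT, so liver kept a level of Pparg that fat did not keep of Ppara. Saa3 was lower against eWAT alone (log2 difference -1.81, adjusted p = 2.5e-04; against iWAT -0.04, adjusted p = 0.92).

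The other 9 pairs did not switch. Plin2, the droplet coat found in most cells, had 367 ± 25.5 FPKM in liver, 330 ± 71.5 in iWAT and 306 ± 95.3 in eWAT, and was not called (log2 difference 0.24 ± 0.18 SE, adjusted p = 0.24). It was called higher without eWAT library 1 (0.34, adjusted p = 0.047), without eWAT libraries 1 and 2 (0.39, adjusted p = 0.020) and lower on the TPM scale (-0.74, adjusted p = 0.0031), and was -0.69 under quantile normalisation. Cidec, which fuses lipid droplets in adipocytes, had 11.8, 59.5, 48.7 and 19.7 FPKM in liver, against 2261 to 2969 in iWAT and 737 to 1651 in eWAT. The liver form Cideb was 44.97 ± 2.89 FPKM there, so Cidec exceeded Cideb in the liver libraries with the most Cidec. Scd1, the main stearoyl-CoA desaturase, was high in all tissues, at 1558 ± 531 FPKM in liver, 3647 ± 342 in iWAT and 1985 ± 700 in eWAT, while Scd2 fell to 1.17 ± 0.249 in liver, against 101 ± 17.6 in iWAT and 76.1 ± 18.9 in eWAT. Scd1 was lower against iWAT (log2 difference -1.28, adjusted p = 0.0016) and not called against eWAT (-0.32 ± 0.29 SE, adjusted p = 0.34). The insulin receptor substrates ran against their listing, with Irs2 lower in liver (log2 difference -1.02 ± 0.18 SE, adjusted p = 2.2e-04) and Irs1 higher (0.57 ± 0.09 SE, adjusted p = 1.4e-04). Insig2, which holds the sterol sensor in the endoplasmic reticulum, was higher by 3.29 and Insig1 by 0.83. Acsl5 was higher by 3.03 and Acsl1, the main acyl-CoA synthetase of both tissues, was not called (-0.26 ± 0.20 SE, adjusted p = 0.26), but was called lower without eWAT library 1 (-0.39, adjusted p = 0.017). Insig1 and Acsl1 were -0.15 and -1.24 on the TPM scale, and Acsl1 was then called lower. Cpt1b was too low to be tested, and Cpt1a was over 99.6% of its pair in every library.

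**Figure D4:**
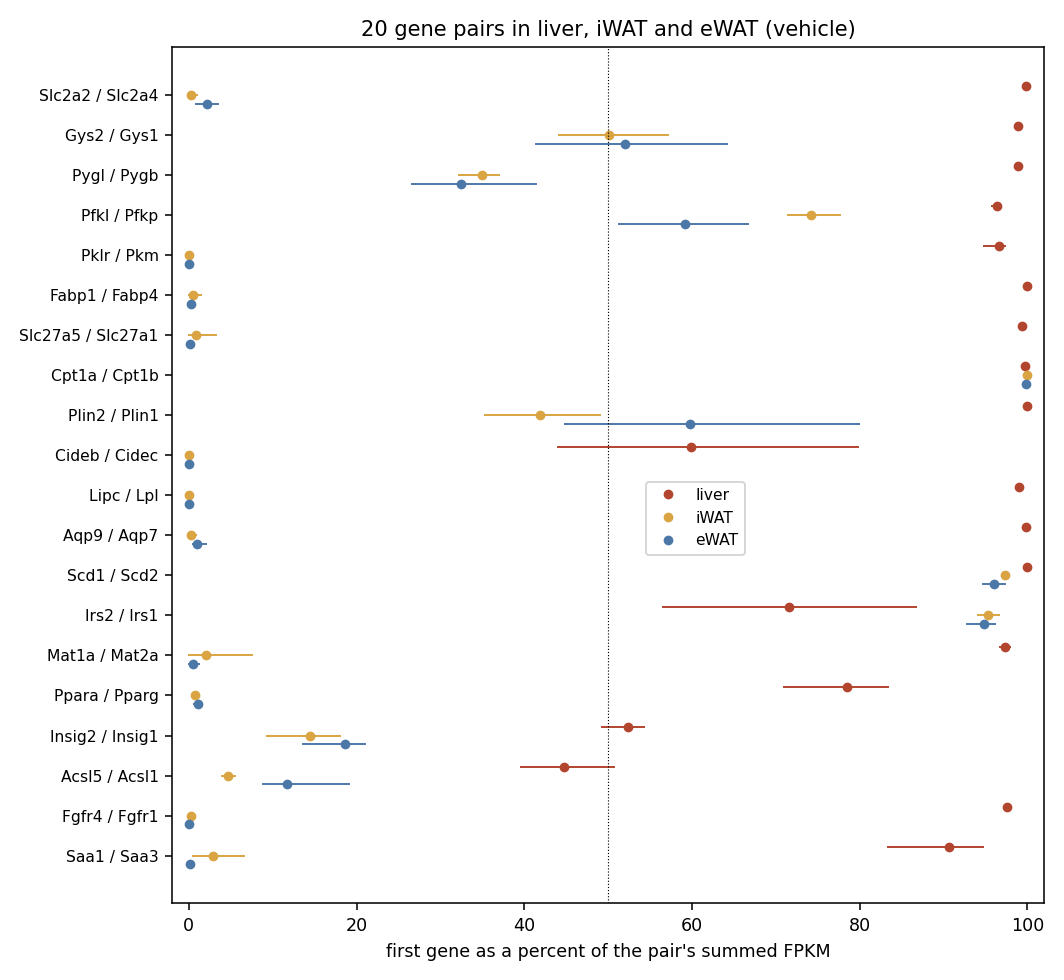
The gene named first as a percent of the summed FPKM of 20 of the 24 pairs; points are means of 4 libraries and lines run between the lowest and the highest library of liver, iWAT and eWAT. In 11 of the drawn pairs every liver library lies above 50% and every fat library below it, while Gys2, Pfkl, Cpt1a, Plin2, Scd1 and Irs2 hold a large share in fat too.

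Fatty acid oxidation was higher in liver for 25 of 30 tested genes, and none was called lower, against 37.6% and 35.3% of all genes. The 4-fold calls were 10, and the peroxisomal thiolase Acaa1b (1502 ± 305 FPKM in liver, 40.8 ± 11.5 in iWAT, 29.3 ± 17.8 in eWAT) and the omega-hydroxylase Cyp4a14 (log2 difference 8.74) led them. On the TPM scale 13 were higher and 6 lower. Ketone body genes were higher for 7 of 8. Bdh1, which makes beta-hydroxybutyrate, had 147, 161, 146 and 151 FPKM in liver, against means of 0.233 ± 0.197 in iWAT and 0.126 ± 0.0689 in eWAT, a log2 difference of 7.02 ± 0.10 (SE, adjusted p = 1.2e-14). Oxct1, which ketone use requires, was the 1 of 8 genes lower in liver, at 0.957, 1.42, 1.495 and 0.791 FPKM in liver, 134, 135, 134 and 121 in iWAT and 61.4, 129, 87.0 and 91.2 in eWAT. Its log2 difference was -5.67 ± 0.17 (SE, adjusted p = 6.9e-12).

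Fatty acid synthesis was mixed, with 12 of 21 genes higher and 5 lower, and 7 higher and 9 lower on the TPM scale. Of all 14382 genes 37.6% were higher and 35.3% lower, and on the TPM scale 2401 genes were higher and 9269 lower. The core enzymes Fasn and Acaca and their regulator Thrsp were not called. Higher were the elongase Elovl3, at 368 ± 58.8 FPKM in liver, 3.25 ± 0.899 in iWAT and 0.442 ± 0.219 in eWAT, and the desaturases of polyunsaturated fatty acids Fads2 (log2 difference 6.36) and Fads1 (4.33). Lower were Scd1, Scd2 and the makers of NADPH Me1, Pgd and G6pdx. Cholesterol synthesis was higher for 19 of 23 genes and lower for 0 (5 lower on the TPM scale), among them Tm7sf2 (22.6 ± 2.12 FPKM in liver, 2.38 ± 0.458 in iWAT, 1.23 ± 0.596 in eWAT) and Ebp (log2 difference 3.02). Its early enzyme Hmgcs1 was not called (0.25 ± 0.17 SE, adjusted p = 0.20), being level with iWAT (-0.29 ± 0.20 SE, adjusted p = 0.20) and higher than in eWAT (0.80 ± 0.20 SE, adjusted p = 0.0029). Hmgcs1 was called higher without eWAT library 2 (0.34, adjusted p = 0.037), was called lower on the TPM scale (-0.73, adjusted p = 8.6e-04) and was -0.45 under quantile normalisation.

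Of 27 triglyceride genes 13 were higher and 11 lower, with a median of -0.23, not far from the 37.6% and 35.3% of all genes, and on the TPM scale 9 were higher and 15 lower. The lower ones were mainly those that bring fatty acids in and close the synthesis, Cd36, Fabp4, Fabp5, Slc27a1, Dgat1, Dgat2, Agpat2 and Mogat2, while Slc27a2, the liver uptake protein, had a log2 difference of 8.49. Lipid droplet proteins and lipases had 9 of 28 higher and 14 lower. The higher ones held carboxylesterases and liver droplet proteins, such as Ces3a at 965 ± 42.3 FPKM in liver, 1.49 ± 2.54 in iWAT and 0.409 ± 0.288 in eWAT. The lower ones held Plin1, Cidec and the caveolar coat Cavin1, which fell to 4.49 ± 0.962 FPKM in liver, against 643 ± 49.2 in iWAT and 371 ± 117 in eWAT.

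Secreted hormones followed the tissue that is known for them, with exceptions. Of 21 genes listed as adipocyte hormones and secreted proteins 17 were lower in liver and 4 higher, against 35.3% and 37.6% of all genes. The median log2 difference of the list was -4.65 (-4.71 with the gene at 0 liver reads set to its bound). The 4 higher genes were Agt, Rbp4, Vegfa and Igf1, which the liver also makes. Agt, the precursor of angiotensin, had 541 ± 77.0 FPKM in liver, 1.57 ± 1.25 in iWAT and 10.99 ± 4.63 in eWAT. Igf1, the mediator of growth hormone, had 44.4 ± 4.97 FPKM in liver, 23.4 ± 3.29 in iWAT and 22.6 ± 8.57 in eWAT, a log2 difference of 0.95 ± 0.19 (SE, adjusted p = 6.5e-04) that was -0.0012 on the TPM scale. Of 23 tested liver hormones and growth factors 20 were higher and 2 lower, or 1 lower without any single library other than eWAT library 1. The iron hormone hepcidin (Hamp) had 1673 ± 413 FPKM in liver, 2.96 ± 5.20 in iWAT and 0.528 ± 0.373 in eWAT. Lect2 and Hgfac, the activator of hepatocyte growth factor, had log2 differences of 7.57 and 6.84. Follistatin (Fst), a binder of activins, was lower, at 0.717 ± 0.204 FPKM in liver, 1.85 ± 0.376 in iWAT and 4.67 ± 1.38 in eWAT.

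Of 38 tested receptors 15 were higher and 20 lower, shares of which the higher one lies near the 37.6% of all genes, and on the TPM scale 9 were higher and 24 lower. The glucagon receptor Gcgr had 228, 189, 220 and 197 FPKM in liver, against 0.533, 0.121, 0.0221 and 0.169 in iWAT and 0.254, 0.0734, 0.394 and 0.338 in eWAT, a log2 difference of 7.41 ± 0.12 (SE, adjusted p = 2.9e-14). The natriuretic peptide receptor Npr3 had 0.238 ± 0.0728 FPKM in liver, 178 ± 19.9 in iWAT and 81.9 ± 28.0 in eWAT. The thyrotropin receptor Tshr had no read in liver, against 31.9 ± 4.63 FPKM in iWAT and 20.7 ± 7.41 in eWAT, at least 2512-fold lower. The prostaglandin E2 receptor Ptger3 gave 2 liver reads, with a white fat to liver ratio of 2630 and a 95% counting interval of 728 to 21720. The beta-3 adrenergic receptor Adrb3, through which noradrenaline starts fat breakdown, had a log2 difference of -1.505 ± 0.41 (SE, adjusted p = 0.0055), with 5.14 ± 1.44 FPKM in liver, 14.6 ± 4.18 in iWAT and 23.8 ± 18.5 in eWAT.

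Insulin signalling was lower in liver for 15 of 22 genes and higher for 5, against 35.3% and 37.6% of all genes, with a median of -0.57. There were 18 lower and 1 higher on the TPM scale, with a median of -1.53. Of the 22 genes 1 was 4-fold higher and 2 were 4-fold lower, against 8.96% and 6.77% of all genes. The adaptor Sh2b2 was among the lower ones (log2 difference -2.31), and the receptor inhibitor Grb10 followed at -1.85 ± 0.08 (SE, adjusted p = 4.7e-10). The receptor itself, Insr, was higher, at 10.7 ± 0.902 FPKM in liver, 6.35 ± 1.04 in iWAT and 4.44 ± 0.554 in eWAT, a difference of 0.89 that was 0.02 on the TPM scale. Igfbp1, a binder of insulin-like growth factors that insulin represses in liver, had 49.8, 88.6, 60.5 and 37.8 FPKM in liver and at most 0.0612 in any fat library.

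Of 21 tested hepatocyte transcription factors 19 were higher, 16 of them 4-fold, with a median log2 difference of 3.37 (3.40 with the gene at 0 reads in fat set to its bound). Hnf4a had 189, 170, 202 and 210 FPKM in liver, 0.5005, 0.0220, 0 and 0.0102 in iWAT and 0.0690, 0.0996, 0.0178 and 0.00967 in eWAT, a log2 difference of 7.48 ± 0.11 (SE, adjusted p = 2.4e-14). Creb3l3, a membrane-bound factor of fasting and lipid export, had 174 ± 12.3 FPKM in liver, 0.421 ± 0.0982 in iWAT and 0.314 ± 0.171 in eWAT, and the bile acid sensor's partner Nr0b2 was higher by 6.37. Cebpa, which stands in the hepatocyte and the adipocyte list alike, was not called (0.49 ± 0.38 SE, adjusted p = 0.26), at 295 ± 21.9 FPKM in liver, 363 ± 30.5 in iWAT and 150 ± 95.7 in eWAT, and was -0.49 on the TPM scale. Adipocyte transcription factors were lower for 11 of 19 and higher for 4, against 35.3% and 37.6% of all genes. Ebf1, which commits cells to the fat lineage, had 0.0224 ± 0.0165 FPKM in liver, 10.9 ± 1.93 in iWAT and 8.12 ± 2.87 in eWAT. Meox2 gave 1 liver read in all. Klf15, also a regulator of gluconeogenesis, was among the higher ones, at 103 ± 23.4 FPKM in liver, 21.6 ± 2.64 in iWAT and 9.86 ± 5.86 in eWAT. The Hox genes, which mark position along the body, lay in the other direction. All 18 Hox genes tested of 33 listed were lower in liver (background 35.3%), and 8 of them had no read in any liver library. Hoxc8 had no liver read, against 52.5, 43.1, 56.4 and 29.6 FPKM in iWAT and 13.6, 29.1, 23.3 and 23.1 in eWAT, at least 1523-fold lower. Hoxc6 and Hoxd8 had 3 liver reads each. A gene high in fat alone could pass the filter through fat, so the count of Hox genes speaks only of those that did.

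The extracellular matrix was lower in liver. Collagens were lower for 18 of 21 genes and higher for 3, and other matrix proteins lower for 29 of 33 and higher for 4. Of all genes 35.3% were lower and 37.6% higher. Sparc, a collagen-binding glycoprotein, had 15.9 ± 2.74 FPKM in liver, 2124 ± 62.6 in iWAT and 1105 ± 289 in eWAT. Basement membrane Col4a1 fell to 5.25 ± 1.12 in liver, against 219 ± 17.6 in iWAT and 159 ± 39.0 in eWAT, and Col6a2 had a log2 difference of -5.13. Mgp, an inhibitor of calcification, had 1.01 ± 0.575 FPKM in liver, 24.6 ± 3.85 in iWAT and 171 ± 53.3 in eWAT. The higher collagens were Col27a1 (log2 difference 2.63), Col18a1, the source of endostatin, and Col14a1. The 4 higher matrix proteins were the plasma proteins vitronectin (Vtn, 7.75) and fibronectin (Fn1, 2.46), with Ecm1 and Spp1. Fibroblast and adipocyte progenitor markers were lower for 15 of 17, with summed FPKM of 55.0 to 71.8 in liver and 2004 to 5406 in fat. Gsn, Clec3b and Dpt led them with differences of -7.35, -6.79 and -6.70. Dpp4 alone was higher (2.82 ± 0.19 SE, adjusted p = 2.9e-08), and it is also a surface enzyme of hepatocytes. Gsn is also made by adipocytes, so the list does not count fibroblasts alone.

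Immune and vessel markers showed resident types on each side. Macrophage markers shared by tissues were lower in liver for 17 of 18 genes, with summed FPKM of 116 to 171 in liver, 414 to 696 in iWAT and 2007 to 5272 in eWAT. Lyz2, macrophage lysozyme, had 30.8, 44.9, 43.8 and 27.9 FPKM in liver, 266, 314, 208 and 281 in iWAT and 2280, 2213, 918 and 915 in eWAT. Cd68 had 4.56, 4.73, 6.22 and 6.04 FPKM in liver, 23.5, 54.1, 25.1 and 34.9 in iWAT and 497, 456, 164 and 196 in eWAT. eWAT libraries 1 and 2 were the highest for both, and liver lay below every fat library with and without them. Kupffer cell markers, of the macrophages resident in liver sinusoids, were higher for 8 of 10 and lower for 1, and for 5 and 2 on the TPM scale. Of all genes 37.6% were higher and 35.3% lower. Clec4f had 42.4, 29.1, 54.0 and 38.3 FPKM in liver and at most 0.130 in fat, and Cd5l, an apoptosis inhibitor of macrophages, had 36.3 ± 9.52 in liver, 0.227 ± 0.180 in iWAT and 4.61 ± 4.29 in eWAT. Folr2 alone was lower (-2.08 ± 0.30 SE, adjusted p = 3.6e-05). Genes of lipid-associated macrophages were lower for 12 of 14, with Lgals3 at 3.31 ± 1.22 FPKM in liver, 136 ± 30.8 in iWAT and 493 ± 207 in eWAT. That list also holds Fabp4 and Lpl, which adipocytes express. Spp1 was higher against iWAT (4.27, adjusted p = 1.9e-05) and not called against eWAT (0.18 ± 0.55 SE, adjusted p = 0.79).

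Pan-endothelial markers were lower in liver for 14 of 16, with Pecam1 at 3.12 ± 0.373 FPKM in liver, 31.1 ± 4.22 in iWAT and 37.5 ± 13.8 in eWAT, and the tight junction gene Cldn5 at 4.20 ± 0.997, 110 ± 22.3 and 60.8 ± 41.5 in the same order. Liver sinusoidal markers were higher for 10 of 14 (6 with a filter of mean FPKM 1), among them the lectin Clec4g (20.8 ± 3.24 FPKM in liver, 0.117 ± 0.0909 in iWAT, 0.0577 ± 0.0393 in eWAT), Gata4, which sets sinusoidal identity, and Dnase1l3. Lyve1, shared with lymphatic vessels and some macrophages, was lower (-1.22 ± 0.29 SE, adjusted p = 0.0020). Capillary markers were lower for 11 of 13, but Cav1, Fabp4 and Lpl are among them. Stellate cell markers were higher for 8 of 12, led by Colec11 (31.9 ± 2.45 FPKM in liver, 0.802 ± 0.248 in iWAT, 1.26 ± 0.657 in eWAT) and Gdf2, the ligand BMP9, and lower for Des, Rgs5 and Cygb, which pericytes and fibroblasts of fat also express. Their summed FPKM ran between 159 and 173 in liver and between 104 and 164 in fat. The counts of these vessel and stellate lists stand against 37.6% of all genes higher and 35.3% lower.

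B cell and immunoglobulin genes were lower in liver for 9 of 12 (4 with white fat as 1 group), against 35.3% of all genes. Against iWAT alone 2 of the 12 were called lower, and against eWAT alone 10. Ighm, the IgM heavy chain, had 7.62 ± 2.12 FPKM in liver, 711 ± 60.8 in iWAT and 585 ± 267 in eWAT. The mast cell proteases Mcpt4 and Tpsb2 had 3 and 0 liver reads. Mcpt4 had 24.6 ± 11.8 FPKM in iWAT and 83.3 ± 86.1 in eWAT, Tpsb2 was at least 824-fold lower in liver, and eWAT library 2 held the highest mast cell and neutrophil sum, 903 FPKM against 48.1 to 263 in the other fat libraries. Red blood cell markers were called for 1 of 6 genes, Alas2, which opens haem synthesis in red cells, at 57.2 ± 7.16 FPKM in liver, 2.34 ± 0.187 in iWAT and 6.07 ± 3.35 in eWAT. The 4 globin genes were not called, but 4 genes of the list were lower on the TPM scale and 2 without liver library 3. Keratins 8 and 18 (Krt8, Krt18), which hepatocytes express, were the 2 genes higher in liver among 13 mesothelial markers and stand in the mammary and skin list too, with 220 ± 48.6 and 195 ± 33.5 FPKM in liver. Skeletal muscle markers were called lower for 4 of 17 genes, against 35.3% of all genes, and not called for 13, and iWAT library 4 widened their spread. In liver the sums of these markers were 6.22 to 7.86 FPKM.

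**Figure D5:**
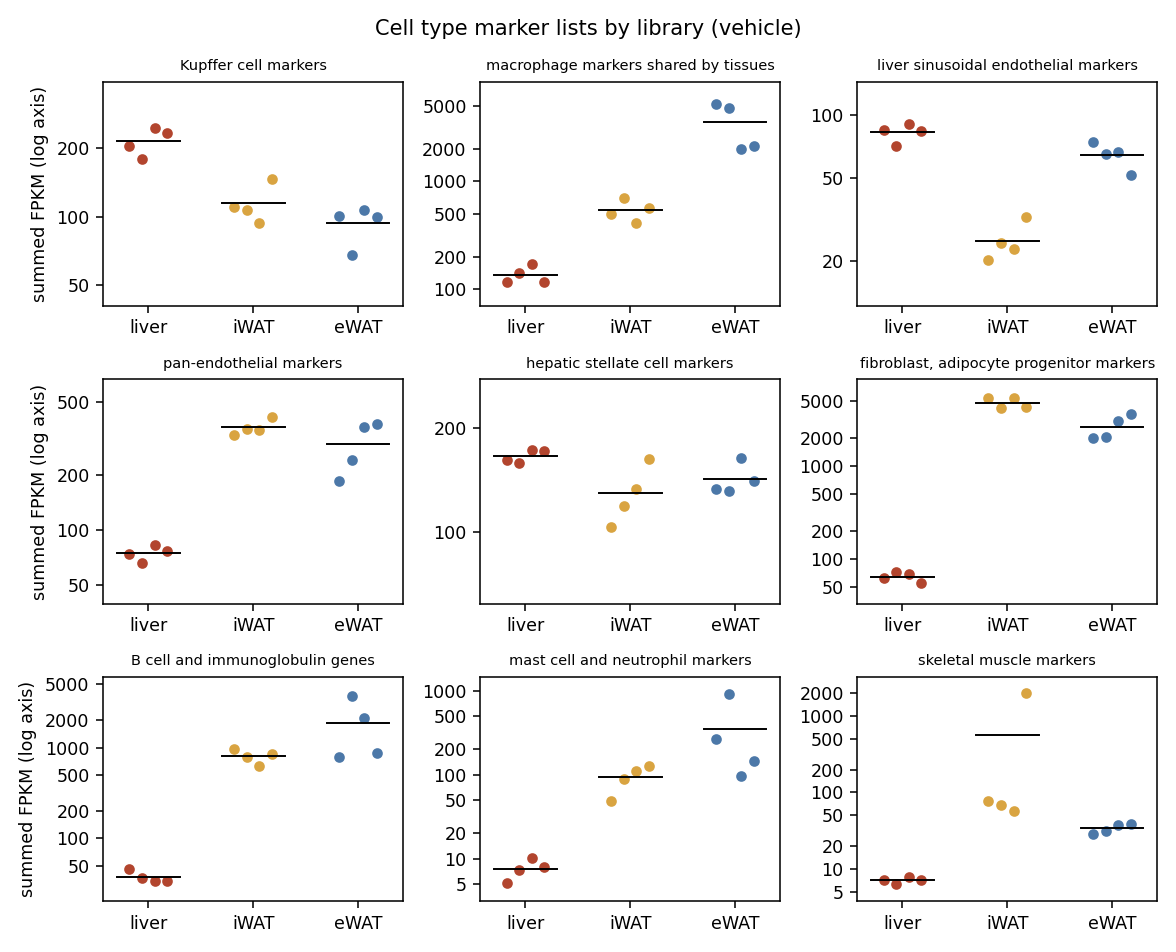
Summed FPKM of 9 marker lists in each vehicle library (log axes); points are libraries 1 to 4 in order and bars are means of 4. Kupffer cell markers are highest in liver, shared macrophage, progenitor, B cell and mast cell markers are lowest there, stellate cell sums overlap, and single high points mark iWAT library 4 for muscle and eWAT library 2 for B and mast cells.

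Some genes lay at closely like levels in liver and fat. Of 1080 protein-coding genes with a mean of at least 50 FPKM, 99 (9.17%) had a 95% interval of the log2 difference within 0.5 of 0. Ferritin heavy chain Fth1 had 2669, 2668, 2719 and 2501 FPKM in liver, 3269, 2633, 2510 and 2471 in iWAT and 2714, 4348, 1769 and 1963 in eWAT, with an interval of -0.44 to 0.47. The ribosomal protein Rpl11 had an interval of -0.28 to 0.28, Rab2a of vesicle transport -0.32 to 0.29, and the retinal reductase Dhrs3 -0.23 to 0.20. Of 44 cytosolic ribosomal protein genes 32 were not called, 3 were higher, with Rps2 at 0.74, and 9 lower (5 without liver library 2 or 4), with Rps24 at -0.84. Of all genes 37.6% were higher and 35.3% lower, or 72.9% called in either direction. These statements hold on the authors' scale: on the TPM scale Fth1 was -0.98, Rpl11 -0.99 and Rps2 -0.25, and 42 of the 44 ribosomal protein genes were called lower, where the median of all genes was -0.81. Under quantile normalisation, where that median was -0.09, Fth1 was -1.20, Rps2 -0.19, and 39 of the 44 were called lower.

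Nuclear genes of oxidative phosphorylation were higher for 44 of 52 (28 with white fat as 1 group), against 37.6% of all genes, with a median of 0.82, and 1, Atp5g1, was 4-fold higher. Against iWAT 16 were higher and 5 lower, while against eWAT 51 were higher and none lower. Uqcrq, a complex III subunit, had 318 ± 46.4 FPKM in liver, 160 ± 28.1 in iWAT and 54.3 ± 19.6 in eWAT. The direction depends on the scaling: on the TPM scale 2 were higher and 16 lower, with a median of -0.16, and under quantile normalisation 8 were higher and 9 lower, with a median of 0.13. Of 13 mitochondrially encoded mRNAs 4 were higher and none lower, but 8 were lower and 0 higher on the TPM scale, 7 lower and 0 higher under quantile normalisation, 8 higher without eWAT library 2 and 0 higher with white fat as 1 group. mt-Nd2 had 6898 ± 401 FPKM in liver, 6176 ± 744 in iWAT and 3067 ± 1320 in eWAT, and its difference of 0.71 (adjusted p = 0.0065) was -0.28 on the TPM scale and -0.78 under quantile normalisation. Peroxisome biogenesis and alpha oxidation had 23 of 28 higher and 2 lower (6 lower on the TPM scale). Urate oxidase (Uox) was higher by 8.77, and Abcd2, a peroxisomal fatty acid importer, was lower, at 8.57 ± 1.80 FPKM in liver, 100.4 ± 10.1 in iWAT and 52.1 ± 15.8 in eWAT.

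The thioredoxin system and selenoproteins, which hold the enzyme that auranofin inhibits, were higher for 21 of 32 genes and lower for 6. Of all genes 37.6% were higher and 35.3% lower. Txnrd1, the cytosolic thioredoxin reductase, had 28.8, 34.4, 30.3 and 27.2 FPKM in liver, 8.94, 9.65, 8.88 and 9.62 in iWAT and 15.7, 13.3, 10.4 and 11.5 in eWAT, a log2 difference of 1.40 ± 0.11 (SE, adjusted p = 1.1e-07). All liver libraries lay above all fat libraries. Sephs2, which activates selenium for selenoprotein synthesis, had 503 ± 50.9 FPKM in liver, 24.8 ± 4.37 in iWAT and 11.7 ± 1.08 in eWAT, the deiodinase Dio1 was higher by 6.89, and Selenop, the carrier that takes selenium out to other tissues, had 2002 ± 201, 265 ± 31.2 and 578 ± 266 FPKM in the same order. Gpx3, the plasma glutathione peroxidase, was lower in liver, at 5.09 ± 1.82 FPKM, against 142 ± 84.5 in iWAT and 160 ± 20.2 in eWAT. Of acute-phase and iron genes 20 of 30 were higher and 6 lower, among the lower the metallothioneins Mt1 and Mt2. On the TPM scale 9 of the 32 thioredoxin and selenoprotein genes were higher and 15 lower.

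Both depots straddled the liver for a small set of genes. Of 12448 protein-coding genes tested 66 were higher in liver than in iWAT and lower than in eWAT, and 93 were lower than in iWAT and higher than in eWAT, both comparisons using the same liver libraries. Those of the 66 that the naming rule took included Tcirg1, a proton pump subunit of lysosomes and osteoclasts, had 15.9 ± 2.02 FPKM in liver, 6.02 ± 1.39 in iWAT and 39.2 ± 17.3 in eWAT, the ester hydrolase Nceh1 had 9.33 ± 1.71, 1.37 ± 0.701 and 18.7 ± 9.05, and the receptor Tnfrsf1b had 13.1 ± 2.49, 6.99 ± 0.712 and 23.5 ± 5.57 in the same order. Those named of the 93 included the citrate carrier Slc25a1 at 187 ± 25.3, 348 ± 61.1 and 117 ± 40.3, phosphomevalonate kinase (Pmvk) at 32.8 ± 7.95, 57.7 ± 7.31 and 20.9 ± 8.36, and mt-Co2 at 114 ± 13.9, 201 ± 42.4 and 58.6 ± 37.6 FPKM. On the TPM scale the differences from both depots together were -0.87 for Tcirg1, -0.09 for Nceh1, -0.93 for Tnfrsf1b and -0.82 for mt-Co2, all positive on the authors' scale. On that scale the Nceh1 call from both depots together was lost without any 1 of 7 libraries (adjusted p = 0.052 to 0.12), and mt-Co2 was called higher without eWAT library 2 (0.34, adjusted p = 0.049).

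The same tissue contrast was made in the 12 auranofin libraries, which share no library with those above. It called 5369 of 14430 genes higher (37.2%) and 4984 lower (34.5%), and 1252 and 923 at 4-fold (8.68% and 6.4%). Of the 1289 genes 4-fold higher under vehicle 1288 were called higher again, and of the 973 that were 4-fold lower 969 were called lower again. Of all calls, 88.2% of the higher and 87.7% of the lower ones were called the same way, and 1 gene was called the opposite way. Whether the tissue difference itself differed between auranofin and vehicle was put to an interaction test in all 24 libraries. limma called 0 of 14416 genes (0.0%), with 877 at an unadjusted p under 0.05 (6.08%) and a smallest adjusted p of 0.56. With no filter on low values it called 11 of 32282 genes.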

How the data were processed

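RNA-seq libraries of total RNA came from liver, iWAT and eWAT of vehicle mice. The authors deposited FPKM per gene, divided by library sizes of their own that differ from the read totals (10936930 to 13267136 in liver, 17251599 to 20272361 in iWAT, 20800371 to 24013795 in eWAT). The submitters' processing notes name DESeq2 1.20.0, STAR 2.6.1d, the counter featureCounts 1.5.0-p3 and the build mm10. The kit does not mark strand, per the labels' protocols, so overlapping genes cannot be parted. Whole reads were rebuilt from the FPKM steps (100% of values within 0.1 of a whole read) and used for read counts and 1 alternative. Symbols came from GENCODE M21, which held 54409 of the 54532 identifiers.

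log2(FPKM + 1) was fitted with limma 3.58.1 (R 4.3.3, empirical Bayes with an intensity trend) as 3 group means over the 12 libraries, liver minus the mean of both depot means, after a filter of mean FPKM 0.5, and tested on simulated data. Python 3.11.15 made the tables. Members, gene lists, pairs and motifs were chosen with earlier results of these data known. Genes were named by size of difference per direction, per list and per pair, by closeness of levels and by opposite calls against both depots; others were chosen after their values were seen. Alternatives changed the pseudocount, filter, scaling, model and the libraries used. Same-numbered libraries did not deviate together. Some genes of these lists and pairs are not reported here.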

Additional observations from a re-analysis of the deposited data

Results flagged for a closer look

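Within each tissue the 4 libraries of every named gene were searched for 1 library far from the other 3, by Dixon's criterion. Of 528 sets of 4 libraries 73 held such a library (13.8%). Chance gives about 1 in 20 for normally distributed values, which FPKM near 0 are not, so the 2 rates cannot be compared directly. A set with reads in 1 library alone meets the rule whatever the count. In liver, Lep and Meox2 had 1 read over all 4 libraries, Adipoq and Bcat1 2, and Retn and Hoxc6 3. All values are FPKM, and the cause of these gaps was not tested. iWAT library 1 was the far library in 38 of them, each time as the highest, and all of these genes are higher in liver. It had 217 for Alb (at most 24.959 in the other 3), 48.3 for Apoa1 (at most 3.79 in the other 3), 282 for Apoa2 (at most 21.036 in the other 3), 61.4 for Fabp1 (at most 8.12 in the other 3), 22.2 for Gc (at most 1.79 in the other 3), 27.1 for Serpina3k (at most 2.06 in the other 3), 12.4 for Ambp (at most 1.30 in the other 3), 11.2 for Ahsg (at most 1.66 in the other 3), 11.7 for Fgg (at most 0.754 in the other 3) and 2.24 for Mbl2 (at most 0.269 in the other 3). It had 1.52 for Cfi (at most 0.156 in the other 3), 29.8 for Apoc3 (at most 3.94 in the other 3), 3.41 for Mat1a (at most 0.228 in the other 3), 4.72 for Hpd (at most 0.649 in the other 3), 10.1 for Gnmt (at most 0.859 in the other 3), 1.65 for G6pc (at most 0.245 in the other 3), 4.44 for Akr1c6 (at most 0.218 in the other 3), 2.07 for Cyp8b1 (at most 0.177 in the other 3), 2.38 for Slc27a5 (at most 0.223 in the other 3) and 3.63 for Cyp2d26 (at most 0.606 in the other 3). It had 3.30 for Cyp4a14 (at most 0.398 in the other 3), 2.07 for Slc27a2 (at most 0.223 in the other 3), 5.29 for Ces3a (at most 0.469 in the other 3), 10.7 for Hamp (at most 0.963 in the other 3), 1.34 for Lect2 (at most 0.116 in the other 3), 0.677 for Hgfac (at most 0.130 in the other 3), 0.50047 for Hnf4a (at most 0.0220 in the other 3), 0.420 for Slc2a2 (at most 0.0302 in the other 3), 0.0996 for Pklr (at most 0 in the other 3) and 0.0722 for Cideb (at most 0 in the other 3). It had 0.499 for Lipc (at most 0.0539 in the other 3), 0.713 for Aqp9 (at most 0.119 in the other 3), 0.130 for Clec4f (at most 0 in the other 3), 0.0413 for Gata4 (at most 0 in the other 3), 0.818 for Dio1 (at most 0.0501 in the other 3), 2.55 for Uox (at most 0.296 in the other 3), 0.479 for C4bp (at most 0.0513 in the other 3) and 0.488 for F13b (at most 0.0779 in the other 3).

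Liver library 1 was far above the other 3 with 0.0162 for Bcat1 (at most 0 in the others) and 10.8 for Ighm (at most 6.86 in the others). Liver library 1 was far below the other 3 with 0 for Retn (at least 0.0515 in the others). Liver library 2 was far above the other 3 with 2349 for Scd1 (at most 1367 in the others). Liver library 2 was far below the other 3 with 1025 for C3 (at least 1355 in the others). Liver library 3 was far above the other 3 with 25.7 for Cfd (at most 3.51 in the others) and 0.0345 for Meox2 (at most 0 in the others). Liver library 3 was far below the other 3 with 113 for Pklr (at least 152 in the others). Liver library 4 was far above the other 3 with 0.132 for Adipoq (at most 0 in the others), 0.0273 for Lep (at most 0 in the others), 617 for Mbl2 (at most 484 in the others) and 6.41 for Bckdk (at most 5.64 in the others). Liver library 4 was far below the other 3 with 0 for Hoxc6 (at least 0.0313 in the others), 0.352 for Grb10 (at least 0.440 in the others) and 40.7 for Cideb (at least 45.9 in the others). iWAT library 3 was far above the other 3 with 11.012 for Sh2b2 (at most 7.07 in the others). iWAT library 3 was far below the other 3 with 621 for Ighm (at least 732 in the others). iWAT library 4 was far above the other 3 with 107 for Pkm (at most 79.6 in the others) and 138 for Slc27a1 (at most 78.7 in the others). iWAT library 4 was far below the other 3 with 121 for Oxct1 (at least 134 in the others). eWAT library 1 was far above the other 3 with 2.75 for Serpina3k (at most 0.773 in the others), 1.27 for Ambp (at most 0.397 in the others), 0.514 for Fbp1 (at most 0.152 in the others), 0.276 for G6pc (at most 0.0387 in the others), 0.430 for Akr1c6 (at most 0.148 in the others) and 31.8 for Tnfrsf1b (at most 21.5 in the others). eWAT library 2 was far above the other 3 with 1063 for Lpl (at most 558 in the others), 0.0425 for Nr0b2 (at most 0 in the others), 12.4 for Meox2 (at most 7.24 in the others), 116 for Rab2a (at most 69.5 in the others), 5042 for mt-Nd2 (at most 2507 in the others) and 114 for mt-Co2 (at most 44.4 in the others). eWAT library 2 was far below the other 3 with 95.5 for Clec3b (at least 169 in the others), 194 for Rps2 (at least 247 in the others) and 4.49 for Atp5g1 (at least 8.46 in the others).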

How the results depend on the processing

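On the TPM scale 2401 genes were higher and 9269 lower, with 1117 higher and 2547 lower at 4-fold, 2755 higher and 7968 lower than in iWAT, and 2134 higher and 9683 lower than in eWAT. At 4-fold a pseudocount of 0.1 gave 1866 higher and 2174 lower, and voom on rebuilt reads 1946 and 2254, so the balance turned to the lower side under these 3 settings. The interaction with auranofin gave 11 calls with no filter, 5 higher and 6 lower (smallest adjusted p 0.024). The sign turned on the TPM scale for Plin2 (-0.74), Hmgcs1 (-0.73), Insig1 (-0.15), Rps2 (-0.25), Fth1 (-0.98), mt-Nd2 (-0.28), Tcirg1 (-0.87), Nceh1 (-0.089), Tnfrsf1b (-0.93), mt-Co2 (-0.82), Hp (-0.23) and Igf1 (-0.0012). Under quantile normalisation it turned for Plin2 (-0.69), Hmgcs1 (-0.45), Rps2 (-0.19), Fth1 (-1.20), mt-Nd2 (-0.78) and Hp (-0.37).

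Leaving out 1 library at a time gave 5002 to 5661 genes higher and 4834 to 5226 lower, and 1275 to 1300 and 959 to 985 at 4-fold. It gave 4687 to 5468 higher and 4408 to 5056 lower against iWAT, and 4925 to 5434 and 4638 to 4881 against eWAT. Nceh1 (adjusted p 0.052 to 0.12) and Nnmt (0.050 to 0.19) lost their calls without any 1 of 7 and of 9 libraries, Plin2 and Acsl1 were called without eWAT library 1 (0.34 and -0.39), and Hmgcs1 and mt-Co2 without eWAT library 2 (0.34 and 0.34). With white fat as 1 group Scd1, Saa3, Spp1, mt-Nd2, Nceh1 and Nnmt were no longer called. The replicate block gave 5384 higher and 5058 lower, and 1289 and 973 at 4-fold, and changed no call of 175 named genes; correlations between same-numbered libraries reached 0.20 at most, and the labels do not tie the numbers to animals. The cause of these shifts was not tested. Genes with few reads in 1 tissue have differences that depend on the pseudocount.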
